A study of Mus musculus with 2 samples.

Results

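Nuclear genes for the mitochondrial ribosome and for the respiratory chain were examined in an Ago2 iCLIP experiment in mouse embryonic stem cells. Members were chosen by the start of the gene symbol in the table of predicted microRNA sites. Mrpl and Mrps marked the mitochondrial ribosome, and Nduf, Uqcr, Cox4 to Cox8 and Atp5 marked the respiratory chain and ATP synthase. This gave 79 mitoribosome genes and 86 respiratory chain genes, 165 of 15271 genes in all. They held 3051 of 687942 predicted sites and 50 of 6211 enriched clusters. By name, the mitoribosome genes comprised 47 of the large subunit, 29 of the small subunit and 3 pseudogenes. The respiratory genes comprised 38 of complex I, 4 assembly factors of complex I, 8 of complex III, 17 of complex IV, 17 of ATP synthase and 2 known not to encode subunits (Cox4nb and Atp5sl). RefSeq now lists Atp5l2 as a pseudogene and Atp5s as Dmac2l, and both stay among the 17 by symbol.

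Mitochondria keep a small genome of their own, and the protein genes it holds in mammals all encode subunits of the respiratory chain or of ATP synthase. The mitochondrial ribosome translates these messages inside the organelle, while its own proteins and most respiratory subunits are made in the cytosol from nuclear genes and imported. The messages of those nuclear genes are therefore open to cytosolic Ago2, the Argonaute protein that carries microRNAs and finds targets mainly through pairing of the microRNA seed, bases 2 to 8.

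iCLIP crosslinks a protein to RNA in living cells and sequences the RNA fragments it holds. The tagged library came from the clonal line TT-FHAgo2, in which a doxycycline-inducible human Ago2 with a FLAG-HA tag was the single Argonaute protein, and the untagged control came from the clonal line TT-Ago2 with human Ago2 that lacks the tag. Doxycycline stood at 0.1 µg/mL during culture and was raised to 2.5 µg/mL for 24 h in both lines. With 1 library of 1 clone per group there is no replicate spread, and all intervals below are exact (Clopper-Pearson) 95% binomial intervals that cover counting error only. The tagged library held 789000 reads, and 1 read at a site was worth 1.27 rpm (reads scaled to library size). All 6 embryonic stem cell markers were listed at 214.6 to 608.7 FPKM (fragments scaled to transcript length and library size), among them Pou5f1 and Nanog. Of 5 fibroblast markers 2 were listed, at 1.89 to 45.0 FPKM, and Col1a1 was not.

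The microRNAs named below were matched by seed, since the site table gives sequences and no microRNA names. The following mature sequences (RefSeq, GRCm38.p6) are a selection of those whose seed or core matches lay under reads in these genes, with the seed in capitals. They are not a ranking, and the seeds with the most sites holding a read are given further below.
miR-294-3p: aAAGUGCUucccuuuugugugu
miR-302b-3p: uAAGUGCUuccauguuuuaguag
miR-290a-3p: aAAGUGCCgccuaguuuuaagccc
miR-17-5p: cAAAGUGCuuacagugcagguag
miR-293-3p: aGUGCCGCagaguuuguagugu
miR-16-5p: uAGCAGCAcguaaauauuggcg
The first 3 belong to the miR-290 and miR-302 clusters, both known from embryonic stem cells. MicroRNA levels were not measured here. All 3 share the core AAGUGC with miR-17-5p, where it stands 1 base further in. On messenger RNA this core is matched by GCACTT. The microRNA miR-293-3p comes from the miR-290 cluster too but has a seed of its own, matched by GCGGCAC, and the seed of the miR-15 and miR-16 family is matched by TGCTGCT.

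Mitoribosome genes carried fewer Ago2 clusters than other genes of like expression. A cluster is a stretch of at least 5 tagged reads that the authors' binomial test called enriched over the untagged library at a p under 0.05. At least 1 cluster was present in 12 of 79 mitoribosome genes (15.2%, interval 8.10 to 25.03), against 17.0% of all genes in the table. The share itself lay near that background, but the genes were more highly expressed, with a median of 32.5 FPKM against 4.49 FPKM in other genes. Other genes in the same strata of 0.5 log2 FPKM had a cluster in 27.6%, which corresponds to 21.8 genes, and the ratio of observed to this share was 0.551. Respiratory chain genes had a cluster in 17 of 86 genes (19.8%, 12.0 to 29.8) at a median of 95.9 FPKM. Other genes of like FPKM had one in 30.5%, or 26.2 genes, a ratio of 0.649. The 30.5% lay above the upper bound of the interval by less than 1 percentage point, and the 27.6% lay above the mitoribosome bound of 25.03%. No test was made of these ratios, because genes of 1 library are not replicates.

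**Figure D1:**
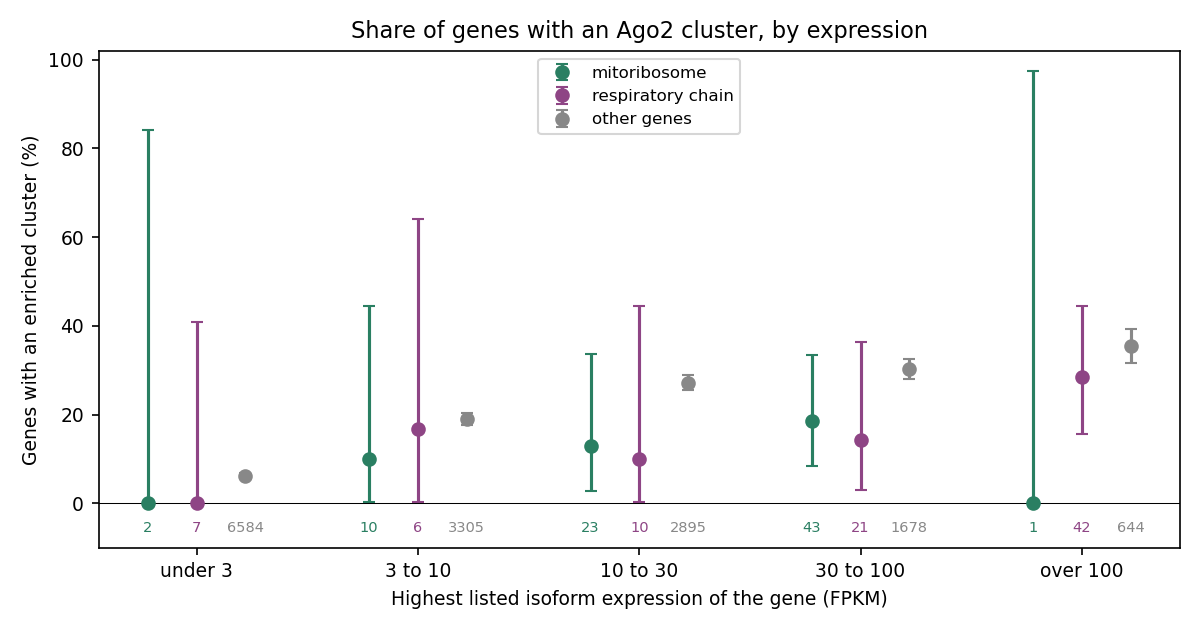
Share of genes with at least 1 enriched cluster (percent) in mitoribosome, respiratory chain and other genes, in 5 classes of the gene's highest listed isoform FPKM. Points are shares, bars are exact 95% binomial intervals, and the numbers under the points are genes. From 3 FPKM upwards both gene classes lie below the other genes in each class, and over 100 FPKM the share is 28.6% of 42 respiratory genes against 35.4% of 644 other genes.

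The 2 gene classes also had few predicted sites. Among genes of at least 10 FPKM, the median number of predicted 3' UTR sites was 5 in mitoribosome genes, 3 in respiratory chain genes and 13 in other genes. In the coding sequence the medians were 5, 3 and 6. Some members with a coding sequence cluster, such as Atp5a1 and Ndufv1, had 0 coding sequence sites listed, so these medians may miss sites. When other genes were matched on both FPKM and the number of 3' UTR sites, the ratio was 0.666 in mitoribosome genes and 0.709 in respiratory chain genes. With this matching, the share of other genes with a cluster lay inside the interval of each class. The length of the 3' UTRs was not measured here.

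The mitoribosome clusters were few and mostly small. The 15 clusters held 152 tagged reads against 2 untagged reads, and 13 of them had no untagged read. The untagged number was worked out from the log2 enrichment that the authors list, and how they scaled it is not known. By region, 9 clusters lay in 3' UTRs, 3 in coding sequence and 3 in 5' UTRs. Clusters of Mrpl50 and of Mrpl19 overlapped in pairs, and after merging there were 13 clusters with 135 tagged reads.

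Among genes named for the small subunit, 5 of 29 had a cluster (17.2%, 5.85 to 35.8), against 27.3% of other genes at like FPKM. The largest clusters of the class lay in small-subunit genes, Mrps18b and Mrps2. Mrps18b, a mammalian counterpart of bacterial ribosomal protein S18, had 35 tagged reads against 0 untagged reads on mm9 chr17:36053248-36053331, with a log2 enrichment of 5.17 and p = 2.9104e-11 in the authors' deposited table. The cluster list labels this cluster 5' UTR and the site table labels the seed match in it coding sequence, so its place at the start of the message is not settled. A second cluster in the Mrps18b coding sequence held 6 reads against 0. Mrps2 had 18 reads against 0 in its 3' UTR on chr2:28326366-28326441, with p = 3.8147e-06 in the authors' deposited table. Mrps24 had 11 against 0 in its 3' UTR on chr11:5604421-5604466. Mrps31 had 9 reads against 0 in the 5' UTR. Mrps30, which carries a small-subunit name although mammalian ribosome structures place the protein in the large subunit, had 6 against 0 in the coding sequence.

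Genes of the large subunit had a cluster in 7 of 47 cases (14.89%, 6.20 to 28.31), against 28.33% of other genes at like FPKM. Mrpl50, a protein without a bacterial counterpart, had overlapping 3' UTR clusters of 11 reads each against 1 untagged read each, on chr4:49526431-49526476 and chr4:49526456-49526479. Mrpl17 had 8 reads against 0, Mrpl51 had 7, Mrpl32 had 5 and Mrpl19 had 6 in each of its overlapping clusters, all in 3' UTRs. Mrpl44, which has a ribonuclease III fold, had 7 against 0 in the 5' UTR. Mrpl10, part of the stalk base that recruits translation factors, had 6 against 0 in the coding sequence. Apart from Mrpl50, the large-subunit clusters held 5 to 8 reads, near the smallest in the list.

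**Figure D2:**
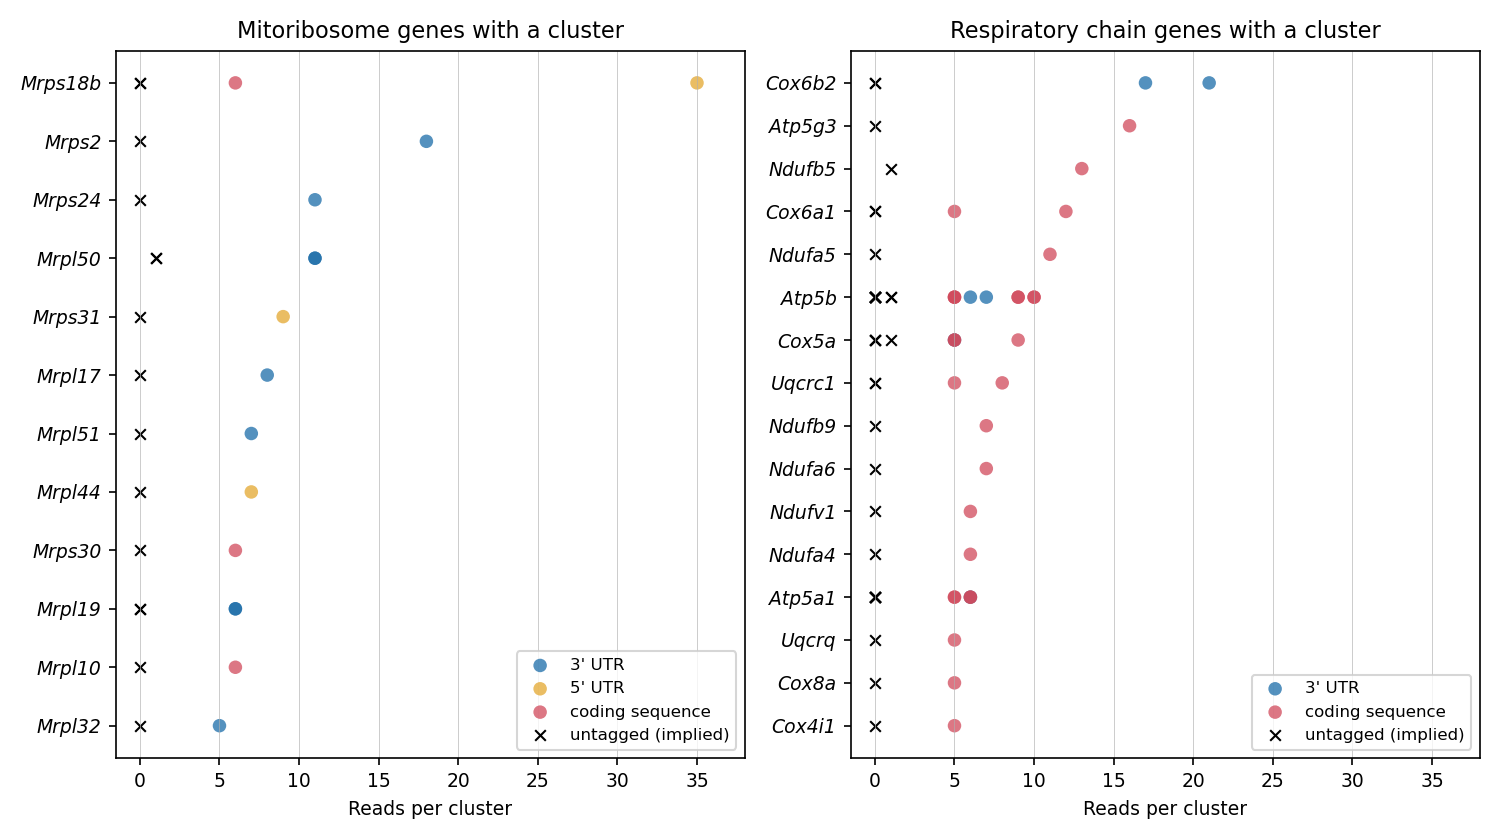
Tagged reads per cluster (coloured points) and implied untagged reads (crosses) for each of the 12 mitoribosome genes (left) and 16 of the 17 respiratory chain genes (right) with a cluster, with genes in order of their largest cluster. The colours give the region. Mrps18b stands out at 35 reads, most other clusters hold 5 to 13, and coding sequence dominates in the respiratory chain genes.

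Of the 15 mitoribosome clusters, 5 in 4 genes (33.3%, 11.8 to 61.6) covered the core match GCACTT, all in 3' UTRs. Both overlapping Mrpl50 clusters are among the 5. The match of miR-293-3p was covered by 1 cluster (6.67%, 0.17 to 31.95). Among clusters of other genes 21.2% covered GCACTT and 1.17% covered GCGGCAC, and both shares lay inside these intervals. The windows below were spelled from the overlapping matches listed in the site table, in the direction of the message. Capitals mark the GCACTT or GCGGCAC match and n is a base that no listed match spells.
Mrps18b (chr17:36053287-36053294, minus strand): GCGGCACa
Mrps24 (chr11:5604429-5604446, minus strand): GCACTTtnctccagtaga
Mrpl50 (chr4:49526456-49526473, minus strand): cannnnnnnnnnGCACTT
Mrpl32 (chr13:14702711-14702718, minus strand): gGCACTTa
Mrpl51 (chr6:125143669-125143676, plus strand): gGCACTTt
The Mrps18b match is the 8mer of miR-293-3p, and its 39 reads (49.4 rpm) were the most at any listed site in both gene classes. Its PhastCons conservation score was 0.0016 on a scale of 0 to 1. The Mrpl32 and Mrpl51 windows pair with the whole seed of miR-290a-3p. The Mrps24 and Mrpl51 windows hold the match of the miR-17 family, GCACTTT, so the Mrpl51 reads do not tell these families apart. Reads over these matches numbered 12 in Mrps24, 13 in Mrpl50, 5 in Mrpl32 and 7 in Mrpl51. The Mrps2 cluster held the 6mer TCTTCC of the miR-7 seed, with 18 reads, and no GCACTT.

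Respiratory chain clusters lay mainly in coding sequence. Of 35 clusters, 28 (80.0%, interval 63.1 to 91.6) were in coding sequence and 7 in 3' UTRs, against 937 of 5376 (17.4%) in coding sequence and 3701 (68.8%) in 3' UTRs among clusters of other genes. Of the 28, Atp5b held 7, Atp5a1 4 and Cox5a 3, while that interval treats clusters as independent. Counted by gene, 15 of the 17 genes with any cluster had one in coding sequence (88.2%, 63.6 to 98.5), against 639 of 2561 other genes (24.95%). Neither comparison was matched on expression, and the median of genes with a cluster was 187.1 FPKM against 13.8 FPKM in other genes. Over 100 FPKM, all 12 respiratory genes with a cluster and 119 of 228 other genes had one in coding sequence. Of all 86 respiratory genes, 17.4% (10.1 to 27.1) had a coding sequence cluster. The 12.9% of other genes at like FPKM lay inside that interval. The 35 clusters held 274 tagged reads against 4 untagged reads, and 31 had no untagged read. After merging of overlaps in Cox6b2, Cox5a and Atp5a1 there were 32 clusters with 247 tagged reads. In coding sequence, 7 clusters crossed splice junctions, and 13 of 28 covered no listed seed match. Among the 13 are the coding sequence clusters of Atp5a1, Cox4i1 and Cox8a, genes with 0 listed coding sequence sites. For these genes an absent match cannot be told from an absent listing. No match was listed in 50.5% of the coding sequence clusters of other genes.

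The genes of ATP synthase, the enzyme that makes ATP from the proton gradient, held 15 of the 35 clusters and 110 of the 274 tagged reads in only 3 of 17 genes. This was 17.65% of the genes (3.80 to 43.4), against 29.6% of other genes at like FPKM. Atp5b, the catalytic beta subunit and with 1054 FPKM the most highly expressed member, had 9 clusters along its message with 66 tagged reads against 2 untagged reads. Of these, 7 lay in coding sequence with 5 to 10 tagged reads each and 2 in the 3' UTR with 6 and 7. Atp5a1, the alpha subunit, at 366.9 FPKM, had 5 clusters with 28 reads against 0, 4 of them in coding sequence. Atp5g3, an isoform of the subunit that forms the membrane ring, had 1 coding sequence cluster of 16 reads against 0 on chr2:73746651-73746702, with p = 1.5259e-05 in the authors' deposited table. The 6mer TTTGAT in it, the match of the miR-291a-5p seed core, had 18 reads and a PhastCons score of 1.0.

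Complex IV, the cytochrome c oxidase that passes electrons to oxygen, had a cluster in 5 of 17 genes (29.4%, 10.3 to 56.0), close to the 28.9% of other genes at like FPKM. Cox6b2, the isoform of subunit VIb known from testis, had the largest respiratory cluster, 21 reads against 0 in its 3' UTR on chr7:4703478-4703539, with p = 4.7684e-07 in the authors' deposited table. It overlapped a second cluster of 17 reads by 21 nt. Its expression was 57.5 FPKM, below the median of the class. Cox6a1 had coding sequence clusters of 12 and 5 reads, both against 0. Cox5a had 4 clusters with 24 reads against 1, 3 of them in coding sequence, and Cox4i1 and Cox8a, at 766.3 and 469.1 FPKM, had 1 coding sequence cluster of 5 reads each.

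Complex I, the NADH dehydrogenase, had a cluster in 7 of 38 genes, each with a single one. This was 18.4% (7.74 to 34.3), against 31.5% of other genes at like FPKM. Ndufb5, an accessory subunit of the membrane arm, had 13 reads against 1 across a splice junction, and Ndufa5, an accessory subunit of the peripheral arm, had 11 against 0. Both lay in coding sequence. Ndufa6 and Ndufb9 had 7 against 0 each, and Ndufa4, a small subunit first assigned to complex I and later found with complex IV, had 6 against 0. Ndufv1, the core subunit that holds the NADH binding site, had 6 against 0 in coding sequence. None of the 4 assembly factors had a cluster, where like expression corresponds to 0.927 genes. In complex III, Uqcrc1 had clusters of 8 and 5 reads and Uqcrq 1 cluster of 5 reads, all against 0 and all in coding sequence.

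The core match GCACTT lay in 5 of the 35 respiratory clusters (14.3%, 4.81 to 30.3), in 5 genes, against 21.2% of clusters of other genes. The match GCGGCAC lay in 3 clusters, each of them in coding sequence. Among coding sequence clusters, 3 of 28 in respiratory genes (10.7%, 2.27 to 28.2) and 24 of 937 (2.56%) in other genes covered GCGGCAC. The 2.56% lay inside that interval. For GCACTT these shares were 3 of 28 (10.7%) and 21.0%. Windows that carry these matches are given as above.
Cox6b2 (chr7:4703504-4703521, minus strand): ttGCACTTganngctgct
Ndufa5 (chr6:24472724-24472735, minus strand): aGCACTTtccta
Ndufa6 (chr15:82181509-82181524, minus strand): tGCACTTaangcagct
Uqcrc1 (chr9:108849497-108849511, plus strand): ctatgantGCACTTa
Ndufb5 (chr3:32643783-32643790, plus strand): GCGGCACa
Cox6a1 (chr5:115798631-115798637, minus strand): GCGGCAC
Ndufv1 (chr19:4012552-4012558, minus strand): GCGGCAC
In the Cox6b2 window the core match stands next to GCTGCT, the core match of the miR-15 and miR-16 family, with 21 and 22 reads over them. The 6mers TTGCAC of the miR-19 seed and ACTTGA of the miR-26 seed overlap the core match, with 21 reads each. The reads do not tell these families apart. The Ndufa5 window reads through both the miR-294 match AGCACTT and the miR-17 match GCACTTT in 1 place, and 11 reads covered it. Reads over the GCGGCAC matches numbered 13 in Ndufb5, 12 in Cox6a1 and 6 in Ndufv1. The site table labels the Ndufb5 and Ndufv1 matches 5' UTR where the cluster list has coding sequence, the reverse of Mrps18b.

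Predicted sites, inside and outside clusters, also differed by region. At least 1 tagged read was present at 214 of 1661 mitoribosome sites (12.9%, 11.3 to 14.6) and at 264 of 1390 respiratory sites (19.0%, 17.0 to 21.2), against 10.7% of all listed sites. At like region and FPKM, here the isoform value listed with the site, sites of other genes had a read in 20.8% and 21.6%. In 3' UTRs the share was 9.18% of 1078 mitoribosome sites, against 22.8% in other genes at like FPKM, a ratio of 0.403. For respiratory 3' UTRs it was 10.5% of 733 sites against 22.04%, a ratio of 0.477. In coding sequence the share was 21.1% of 440 mitoribosome sites against 18.0% (ratio 1.18) and 34.4% of 419 respiratory sites (29.8 to 39.1) against 22.2% (ratio 1.55). In 5' UTRs the ratios were 0.925 and 0.940.

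**Figure D3:**
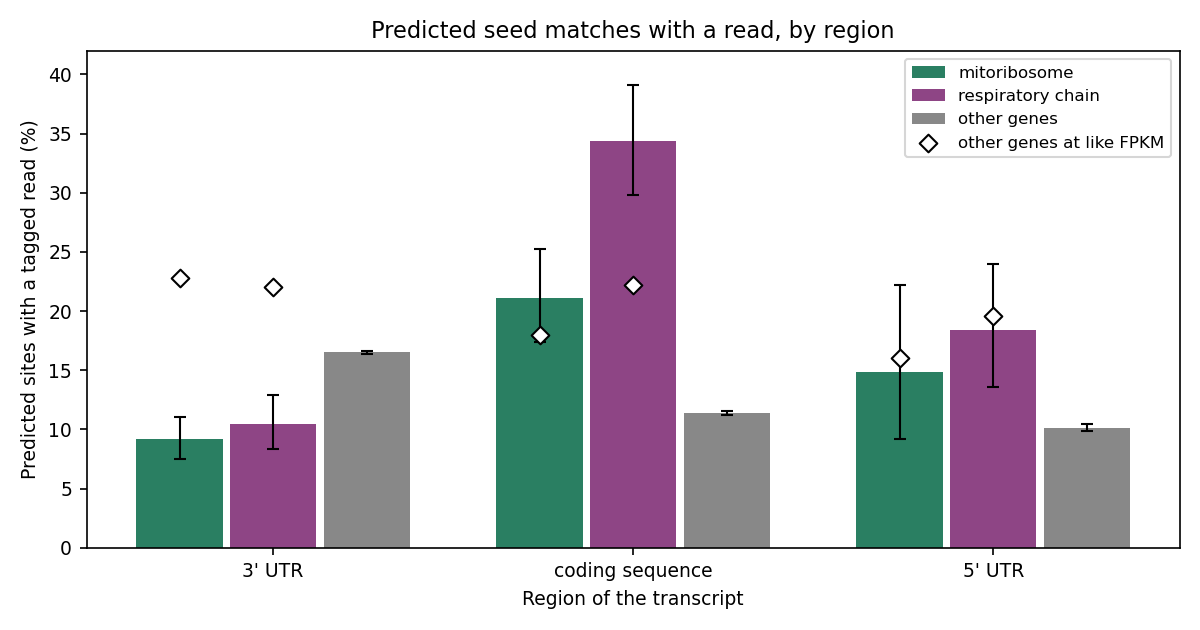
Share of predicted sites of the listed seeds with at least 1 tagged read (percent), by region, in mitoribosome, respiratory chain and other genes. Error bars are exact 95% binomial intervals, and white diamonds give the share in other genes of like isoform FPKM. Both gene classes lie well under their diamonds in 3' UTRs, and respiratory genes lie above theirs in coding sequence.

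In 3' UTRs and coding sequence no single gene set the ratio. Leaving out each gene in turn moved the 3' UTR ratio between 0.375 and 0.436 in mitoribosome genes and between 0.439 and 0.546 in respiratory chain genes. The coding sequence ratio moved between 1.10 and 1.23 and between 1.49 and 1.60. Reads in 3' UTR sites came from 37 of 73 mitoribosome genes and 32 of 75 respiratory genes with such a site, and reads in coding sequence sites from 27 of 45 and 35 of 58. The 8mers that extend none of the 50 listed seeds gave similar ratios, 0.457 and 0.485 in 3' UTRs and 1.07 and 1.65 in coding sequence. The division between regions was thus also present at 8mers outside the listed seeds. These 8mers are predicted microRNA sites as well and may match seeds of other microRNAs. With at least 2 reads per site the coding sequence ratio was 1.01 in mitoribosome genes and 1.94 in respiratory chain genes, and the 3' UTR ratios were 0.261 and 0.481. The 5' UTR ratio was then 1.51 in mitoribosome genes, on 8 sites, and 0.732 in respiratory chain genes, on 13 sites.

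Counted by gene, a 3' UTR cluster was present in 7 mitoribosome genes where like expression corresponds to 15.1, and in 5 respiratory genes against 16.8. A coding sequence cluster was present in 3 mitoribosome genes against 6.63, and in 15 respiratory genes against 11.1. For 5' UTRs the numbers were 3 mitoribosome genes against 0.687 and 0 respiratory genes against 2.30. The 3 mitoribosome genes were Mrps18b, Mrps31 and Mrpl44.

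Places with the core match GCACTT numbered 57 in 48 member genes, and 19 of them, in 18 genes, had a read. In mitoribosome 3' UTRs 9 of 28 places had a read, with 50 reads in all. In respiratory 3' UTRs only 2 of 11 had one, Cox6b2 among them, while 5 of 6 places in respiratory coding sequence did, with 30 reads. Mrps18a had the most reads of any such place outside a cluster, 6 in its 3' UTR. For GCGGCAC, the single mitoribosome place had a read, as did 2 of 3 places in respiratory 5' UTRs and 1 of 2 in respiratory coding sequence.

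**Figure D4:**
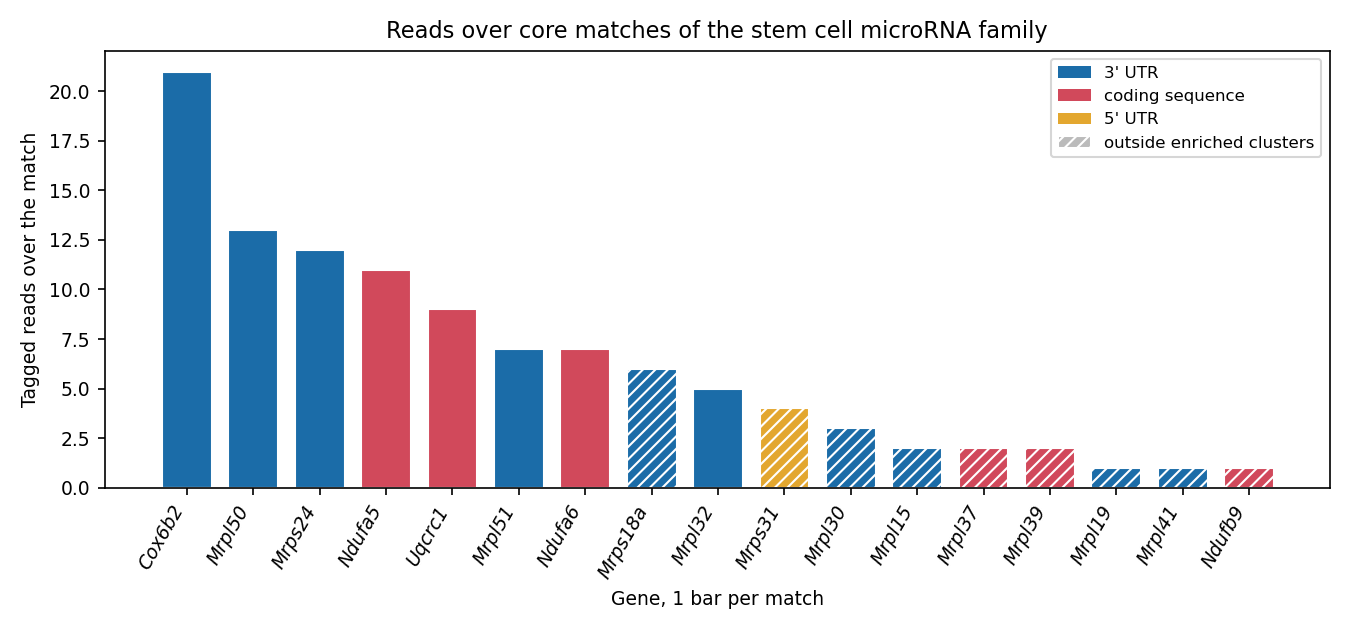
Tagged reads over 17 of the 19 core matches of the miR-290 and miR-302 family that held a read, 1 bar per place, in order of reads. Colours give the region and hatched bars lie outside enriched clusters. Cox6b2 leads with 21 reads, and 8 of the 17 plotted places lie in a cluster.

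By seed family, named by the shared 6mer, those with the most sites holding a read in mitoribosome genes were GCTGCT with 16 of 68 sites, GCACTT with 11 of 31, TGCCTT with 11 of 43, TGCTGC with 11 of 54, CCGGCT with 10 of 32 and AGCAGG with 9 of 55. The GCACTT share of 35.5% (19.2 to 54.6) was close to the 34.4% of the same family in other genes of any expression and region. In respiratory chain genes they were CTATGA with 12 of 34 sites, GCTGCT with 12 of 48, CCGGCT with 11 of 26, TGCTGC with 11 of 37, CTGTGA with 11 of 47 and GCAGCT with 11 of 52. The CTATGA share was 35.3% (19.7 to 53.5), against 7.92% of the same family in other genes of any expression and region. Listed seeds of any family in other genes at like region and FPKM would correspond to 7.33 CTATGA sites and, for mitoribosome genes, 7.10 GCACTT sites with a read. CTATGA is the core match of miR-376b-3p. Besides the sites given above, the 8 of each class with most reads included 3 in the Mrps31 5' UTR with 9 to 10 reads, 1 of TGCCTT in the Mrpl19 3' UTR with 7, 1 of TGCCAT in Atp5g3 with 13 and 1 of GCTGCT in Cox5a with 13.

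Crosslink positions were read in clusters that covered a single GCACTT and crossed no splice junction, which left out Ndufa6 and Uqcrc1. Of 9 such positions in member clusters, 4 lay on the base just before the match, among them those in Cox6b2 and both Mrpl50 clusters, and the overlapping Mrpl50 clusters may give the same position. A further 3 lay 8 bases before the match, in Cox6b2, Mrps24 and Ndufa5, and 2 lay 6 bases past the first base of the match, 1 of them in Mrpl32. In clusters of other genes 268 of 1147 positions (23.4%) lay on the base just before it. The end from which offsets are counted was chosen by this share over all clusters, so the share is description only.

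Many of the most highly expressed members had no cluster and few reads. The 8 mitoribosome genes of highest FPKM without a cluster were Mrpl52, Mrpl34, Mrpl42, Mrpl13, Mrps16, Mrpl20, Mrpl21 and Mrpl11, at 66.0 to 143.3 FPKM. Of these, Mrpl34 had 1 read at each of 3 of its 9 sites and Mrpl13 at 2 of 5. The other 6 had no read at any listed site, where Mrpl21 had 14 sites and the others 2 to 4. The 8 respiratory genes were Cox6b1, Cox7c, Cox7a2, Uqcr10, Ndufa7, Atp5j2, Atp5c1 and Cox6c, at 200.4 to 332.0 FPKM. Atp5c1, the gamma subunit that turns within ATP synthase, had 1 read at each of 6 of its 24 sites. Atp5j2 had none at 13 sites and Cox6b1 none at its single site, while Uqcr10 reached 3 reads at 1 of its 4 sites. These ranks use the highest listed isoform, and sites can be listed on weaker isoforms. The median FPKM over a gene's entries was 0.651 in Mrpl21, 0.283 in Atp5c1, 0.269 in Cox6c, 4.33 in Cox7c and 73.05 in Atp5j2. In the other genes of these 2 lists it equalled the highest value. In all, 49 of 79 mitoribosome genes (62.03%) and 58 of 86 respiratory genes (67.4%) had a read at some listed site, against 63.0% of all genes with a listed site. Among genes of at least 10 FPKM the shares were 61.2% and 74.0%, against 81.7% of other genes. The median numbers of listed sites in these genes were 14, 13 and 30.

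Other genes of the pathway, from lists of symbols outside the naming rule, varied in how often they had a cluster. Of 24 further genes of the mitoribosome and of mitochondrial translation, 2 had a cluster (8.33%, 1.03 to 27.0), against 25.1% of other genes at like FPKM. They were Aurkaip1, a small-subunit protein, with 5 reads against 0, and Lrpprc, which stabilises mitochondrial messages, with 7 against 0. None of 5 genes of mitochondrial transcription had one, Tfam and Polrmt among them, where the like-FPKM share was 19.98%. Among 11 respiratory genes with other names, Sdhc and Sdhd, the membrane anchors of complex II, had clusters (18.2%, against 32.0% at like FPKM). Sdhc had 1 of 22 reads against 0 in coding sequence, more than any respiratory cluster by symbol, and Sdhd had 3 in the 3' UTR with 15 reads against 0. Of 22 assembly genes Tmem126b alone had one, of 5 reads against 0 (4.55%, against 22.7% at like FPKM). Regulators of mitochondrial biogenesis lay above their like-FPKM share, with a cluster in 3 of 6 genes (interval 11.8 to 88.2%) against 22.9%. These clusters were each in the 3' UTR, in the coactivator Pprc1 with 5 reads, the transcription factor Nrf1 with 7 and the nuclear receptor Esrra with 5, all against 0.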

How the data were processed

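Files of the tagged library alone were analysed, and the untagged one enters by way of the deposited enrichment. Per the submitters' processing notes Bowtie and TopHat were used with mm9 and NCBIM37. Versions, the cluster caller and the origin of the FPKM were not given in the sources used here. Peak height in the deposited cluster list is a signal in whole reads. The deposited score field holds other text with the tagged reads, their log2 enrichment and a binomial p-value. From this log2 an untagged whole number was solved for, with 1 added to either side, and it returned the log2 of each of 6211 clusters to 0.005. In the site table, rpm (library-scaled coverage), isoform FPKM, log2 coverage and the PhastCons score are as the authors deposited them. Whole reads were recovered from rpm (100% of entries within 0.001), and no count test was run because each group has 1 library.

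Sites were made distinct, and shorter matches inside longer ones were left out. A gene's FPKM is its highest listed isoform value, and it sets the stratum for shares of genes. A site's stratum uses the isoform FPKM of its own first listed entry, which can be far lower. No other FPKM was tried for the site ratios. Expected shares are those of other genes in the same stratum of 0.5 log2 FPKM, for sites in the same region. The 966 8mers that extend none of the 50 listed seeds are called control 8mers. They are predicted microRNA sites too and may match seeds of other microRNAs, so they are not neutral sequence. Crosslink offsets were counted from the lower coordinate on both strands, since 23.9% and 23.2% of positions then fell on the base before GCACTT, against 1.01% and 0.713% from the upper end. Of 165 symbols, 160 matched RefSeq by symbol and 5 by synonym. Python 3.11.15, pandas 2.3.3, NumPy 2.4.6, SciPy 1.17.1 and Matplotlib 3.10.9 were used. The expected share was tested on simulated data.

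Members, lists and settings were chosen with earlier results of these data known. Named were, per class, members with a cluster (values of all, or of the 15 with most tagged reads), the 8 of highest FPKM without one, the 8 sites with most reads, the 6 seeds with most sites holding a read, and pathway genes with a cluster; a few others were named after their values were seen. 1 gene that the rule names is not reported here by name.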

Additional observations from a re-analysis of the deposited data

Results flagged for a closer look

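Transcripts of the mitochondrial genome lie outside the gene symbols used above. The cluster list held 24 enriched clusters there, all annotated as intergenic, with 472 tagged reads against 82 untagged reads, and 9 had no untagged read. The largest held 66 tagged reads against 12 untagged reads at positions 257 to 378. Their annotation was not analysed here, and the scaling of the untagged number is unknown.

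A cluster antisense to a gene carries the name of Atp5o, a stalk subunit of ATP synthase, together with that of Cryzl1, and was not counted for either. It held 5 tagged reads against 0 untagged reads on chr16:91708838-91708878.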

How the results depend on the processing

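Among 44 alternative values, 28 moved by less than the interval of the reported one and 16 by more. The share of respiratory genes with a cluster became 11.6% at an authors' p under 0.01, 10.5% with at least 7 tagged and no untagged read, and 5.81% for 3' UTR clusters alone. The mitoribosome share with a cluster stayed between 8.86% and 16.4%. The share of mitoribosome sites with a read became 3.67% at 2 reads or more, 1.08% for overlap with a cluster, 9.18% in 3' UTRs, 21.1% in coding sequence, 15.0% for 7mers and 8mers, 9.03% for control 8mers and 15.2% at 10 FPKM or more. For respiratory sites these were 8.85%, 1.66%, 10.5%, 34.4%, 21.3% and 14.8%, in the same order without the last. The like-FPKM ratios ranged from 0.533 to 0.666 and from 0.649 to 0.724. The median isoform FPKM was applied to these ratios, since a share with a cluster uses no FPKM. Names with several symbols, junction clusters left out, ratios by region at 2 reads, control 8mers and single genes left out were chosen after seeing the data. No paired analysis was possible because each group has 1 library. Depth limits the text to clusters of 5 or more reads, and an absence of reads at a site says only that none was seen at 1.27 rpm per read.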
